A study of Mus musculus with 6 samples.

Results

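The genes described here are the transcription factors that build the heart, together with close cofactors, taken without the Iroquois, HEY and SRF genes. They were chosen by gene name from a list of 33, and 31 of the 33 had a mean value of at least 10 over the 6 hearts of the study, out of 15556 genes that reached that mean and 45706 in the whole table. The 2 that lay below it were Mycl, at 4, 3 and 6 in the control hearts, against 9, 13 and 8 in the knockout hearts, and Isl1, a factor of the second heart field, at 4, 2 and 6 and at 10, 7 and 3; both were left out of every test. The lowest mean among the 31 was that of Gata5, 82.2, so no tested member lay near the limit.

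The study sequenced poly(A) RNA of whole mouse embryonic hearts of the strain C57BL6/J, 3 littermate controls and 3 double knockouts. All 6 carried loxP-flanked (flox/flox) alleles of Rbpms and Rbpms2, which encode RNA-binding proteins, and the genotype labels give the Cre transgene (aMyHC Cre pos) for the 3 knockouts. The promoter of the alpha-myosin gene Myh6, on in heart muscle cells, drives that Cre. Other cell types of these hearts should keep both genes, which was not tested. The transgene and the deletion cannot be told apart here. The day of development is not in the labels used here. The comparison asks how the transcripts of the heart differ once both genes are targeted in its muscle cells.

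Depth, estimated from the spacing of the low values, was 12960709 to 25837261 reads per heart, and the deposited values, which were already scaled between samples, summed to 17861435 to 18439201. In the order of replicates 1 to 3, which holds for all such values, Rbpms was at 6998, 3868 and 7656 in the control hearts, against 1134, 1117 and 852 in the knockout hearts, and Rbpms2 at 1711, 1362 and 1998 and at 879, 1003 and 911, so both targeted genes lay below every control in every knockout. The knockout mean was 16.8% of the control mean for Rbpms and 55.1% for Rbpms2. By Xist and Y-linked transcripts, 2 of 3 controls and 1 of 3 knockouts were female. Defining markers of heart muscle were abundant in all hearts, with 0 of 10 cardiomyocyte markers listed at 0. Of 15556 genes tested, 2670 passed the threshold used throughout, an adjusted p under 0.05 in limma. That number was 1669 without control replicate 3 and 1305 without knockout replicate 2.

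Heart-forming transcription factors act as a mutually dependent network. NKX2-5, the GATA, T-box, MEF2 and HAND proteins bind near the same muscle genes, and many of them bind and regulate each other. Other members mark regions or cell types: TBX2 and TBX3 repress chamber genes in the atrioventricular canal, COUP-TFII (the product of Nr2f2) is known for atrial and venous identity, and FOXC1 and FOXC2 act in the outflow tract and in endothelial cells. Still others act in growth of the ventricle wall, among them MYCN and PRDM16 in the compact myocardium.

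Of the 31 factors, 4 rose in the knockouts (Foxc1, Foxc2, Nr2f2 and Hopx) and 4 fell (Hand1, Mycn, Lbh and Casz1), while 23 did not pass the test. These are whole hearts, in which fewer cells of a type and less RNA per cell cannot be told apart. The share called was 25.8% of the members, against 17.2% of all genes tested. In each direction 12.9% of the members were called, against 8.61% of all genes for rises and 8.56% for falls. The median log2 change of the members was -0.11 and that of all genes 0.00, and the median size of the change regardless of sign was 0.18 on the log2 scale for both. A log2 change here is always knockout minus control on the scale log2(value + 1), on which 1 stands for a change of 2-fold.

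To show the control regions of the members that moved, the sequence before the transcription start is given for the 4 called genes that have a single start in the RefSeq promoter set (build GRCm38.p6): Foxc1 and Nr2f2, which rose, and Mycn and Lbh, which fell. Each runs 5′ to 3′ on the gene's own strand, from base 250 before the RefSeq start up to the start or to the edge of the annotated gene. Capitals mark an E2F motif, whose letters are TTTGGCGC, the letters CCAAT of the box of that name, or the TATA box, which reads TATAAA, each on either strand. These 3 motifs were chosen after the sequences had been read, so the shares of windows given for them below are no test of enrichment.
Foxc1, chr13:31806396-31806632, plus strand: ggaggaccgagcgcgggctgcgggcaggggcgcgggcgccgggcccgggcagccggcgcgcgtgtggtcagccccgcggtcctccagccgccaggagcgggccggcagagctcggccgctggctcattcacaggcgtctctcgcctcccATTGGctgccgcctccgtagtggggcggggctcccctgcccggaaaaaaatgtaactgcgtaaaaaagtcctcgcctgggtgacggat
Nr2f2, chr7:70366747-70366996, minus strand: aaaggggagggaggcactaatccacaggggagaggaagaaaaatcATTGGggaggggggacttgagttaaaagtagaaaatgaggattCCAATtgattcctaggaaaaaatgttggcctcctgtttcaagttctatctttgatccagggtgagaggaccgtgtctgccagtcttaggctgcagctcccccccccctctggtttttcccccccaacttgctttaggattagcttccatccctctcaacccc
Mycn, chr12:12941915-12942086, minus strand: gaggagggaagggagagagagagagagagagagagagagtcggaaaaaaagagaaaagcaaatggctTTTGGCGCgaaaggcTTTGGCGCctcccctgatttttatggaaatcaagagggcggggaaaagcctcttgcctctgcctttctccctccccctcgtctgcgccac
Lbh, chr17:72918055-72918304, plus strand: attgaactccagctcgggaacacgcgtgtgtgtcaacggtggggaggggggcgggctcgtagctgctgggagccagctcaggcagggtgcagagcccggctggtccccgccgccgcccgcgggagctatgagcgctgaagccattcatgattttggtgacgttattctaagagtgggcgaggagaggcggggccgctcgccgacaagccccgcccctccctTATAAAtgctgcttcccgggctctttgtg
The Mycn sequence holds the E2F motif in both of its marked places, beginning at bases 183 and 168 before the start. Over all 32851 promoter windows of 300 bases in the set (250 before to 50 after a start), 0.514% hold this motif on either strand, and of the 21 members with a window only Mycn and Hopx do. E2F proteins are the factors that drive genes of S phase. A TATA box begins 29 bases before the start of Lbh, and 13.6% of all windows hold those letters. CCAAT boxes stand in the Foxc1 and Nr2f2 sequences, in 53.6% of the 28 windows of the members and in 37.4% of all windows.

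Motifs of the network's own factors were searched on both strands of the same windows, 28 windows of 21 members. GATAA, the core of the GATA site, was in 3 of the 28 member windows, or 10.7%, and in 25.4% of all windows. Member windows and all windows were not matched for GC content, and no difference between them was tested. The NKX2-5 motif TNAAGTG was in 10.7% of member windows and 11.5% of all, the T-box motif AGGTGT in 7.14% and 13.7%, the MYC E-box CACGTG in 7.14% and 7.15%, and the E-box CATCTG used by HAND proteins in 17.9% and 17.2%. GGAATG, the TEAD motif, was in 14.3% and 14.7%, the nuclear receptor motif AGGTCA in 10.7% and 16.3%, and the forkhead motif GTAAACA in 3.57% and 3.65%, and none of the motifs is contained in another. A match is a match of letters in this window, not a known binding site.

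The FOXC forkhead genes had the largest rises. Foxc1 (ENSMUSG00000050295; chromosome 13, 31806633 to 31812476 in mm10, plus strand) was at 180, 223 and 228 in the control hearts, against 332, 420 and 409 in the knockout hearts. Every knockout lay above every control, a mean of 387 ± 47.9 against 210 ± 26.4 (SD, n = 3 each). The log2 change was 0.88 (SE 0.13, limma adjusted p = 0.00222). Foxc2 (ENSMUSG00000046714; chromosome 8, 121116171 to 121118895, plus strand), a paralog with overlapping roles in the mouse outflow tract and vessels, was at 81, 70 and 95 in the control hearts, against 125, 146 and 161 in the knockout hearts. The groups did not overlap here either, and its log2 change was 0.81 (SE 0.16, limma adjusted p = 0.00836). The remaining forkhead member, Foxp1, which acts in both myocardium and endocardium, was at 1317, 1293 and 1366 in the control hearts, against 1308, 1345 and 1303 in the knockout hearts. Its log2 change was -0.01, with a 95% interval from -0.15 to 0.13, and the sign turned under other scalings.

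Nr2f2 (ENSMUSG00000030551; chromosome 7, 70351944 to 70366735, minus strand) was nearly the same in the 3 controls, at 394, 392 and 401, and stood at 506, 612 and 644 in the knockouts. The groups did not overlap, and the log2 change was 0.56 (SE 0.10, limma adjusted p = 0.00519). An annotated transcript on the opposite strand, B130024G19Rik, shares 643 exon bases with it and was at 47, 61 and 46 in the control hearts, against 70, 71 and 69 in the knockout hearts; the sources used here do not say whether counting used strand, so reads of the pair cannot be fully separated. Nr2f1, the gene of COUP-TFI, was at 119, 110 and 107 and at 92, 117 and 104, with a log2 change of -0.11 (95% interval -0.42 to 0.21).

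Hopx (ENSMUSG00000059325; chromosome 5, 77086988 to 77115121, minus strand) encodes a small homeodomain protein that does not bind DNA and that restrains SRF. It was among the most abundant members, at 5570, 6973 and 5976 in the control hearts, against 8706, 8905 and 8268 in the knockout hearts. The knockouts lay above every control, by 1.40-fold on the means, a log2 change of 0.49 (SE 0.08, limma adjusted p = 0.00432). Its antisense transcript Hopxos was at 13 to 16 in the controls and 17 to 19 in the knockouts.

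**Figure D1:**
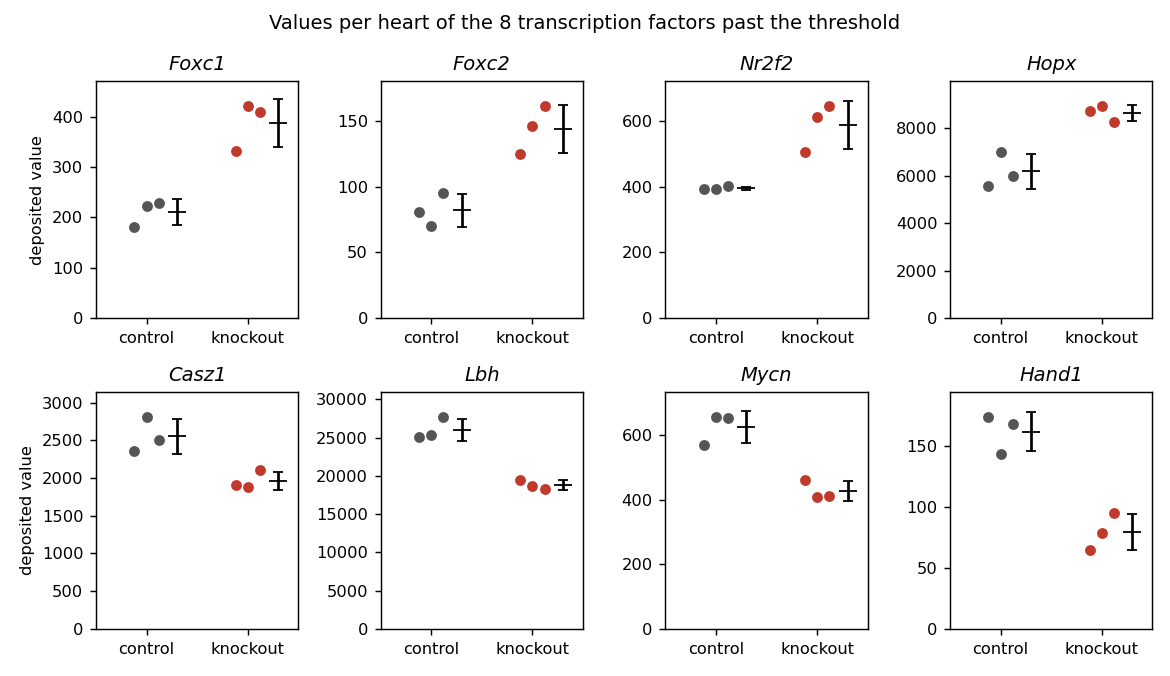
Deposited values (vertical axis, scaled read numbers, from 0) of the 8 transcription factors past the threshold, in each of the 3 control and 3 knockout hearts; points are hearts, and the horizontal mark and bar give mean and SD. In none of the 8 panels do the groups overlap; Foxc1, Foxc2, Nr2f2 and Hopx are higher in the knockouts, and Casz1, Lbh, Mycn and Hand1 lower.

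Hand1 had the largest fall of the list. Its protein is a basic helix-loop-helix factor of the left ventricle in the mouse. Hand1 (ENSMUSG00000037335; chromosome 11, 57828705 to 57832818, minus strand) stood at 174, 144 and 168 in the control hearts, against 65, 79 and 95 in the knockout hearts. The highest knockout lay below the lowest control, and the knockout mean was 49.2% of the control mean. The log2 change was -1.03 (SE 0.17, limma adjusted p = 0.0031). Hand2, the family member known for the right ventricle, was at 1226, 1185 and 1273 in the control hearts, against 1237, 1276 and 1287 in the knockout hearts. Its log2 change was 0.05, with a 95% interval from -0.10 to 0.19. The antisense RNA Hand2os1, which shares 461 exon bases with Hand2, was at 1909 to 2577 over the 6 hearts, so reads of that pair cannot be fully separated either.

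Mycn (ENSMUSG00000037169; chromosome 12, 12936093 to 12941914, minus strand) encodes the MYC protein that drives proliferation of embryonic heart muscle. It was at 568, 655 and 653 in the control hearts, against 461, 407 and 411 in the knockout hearts, with no overlap of the groups. The log2 change was -0.55 (SE 0.09, limma adjusted p = 0.00382). Myc itself was at 498, 537 and 630 and at 486, 530 and 529, with a log2 change of -0.10 (95% interval -0.32 to 0.12). The knockout values of Myc lay inside the span of its controls for replicates 2 and 3 and just under it for replicate 1.

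Lbh (ENSMUSG00000024063; chromosome 17, 72918305 to 72941947, plus strand), a small cofactor named for its expression in limb bud and heart, was the most abundant of the 31. It was at 25008, 25276 and 27662 in the control hearts, against 19477, 18677 and 18261 in the knockout hearts, with means of 25982 ± 1461 and 18805 ± 618 (SD, n = 3 each). The spread within each group was small beside the gap between them, and the log2 change was -0.47 (SE 0.07, limma adjusted p = 0.0023). Casz1 (ENSMUSG00000028977; chromosome 4, 148804429 to 148954889, plus strand), a zinc finger factor needed for growth of the mouse heart muscle, was at 2353, 2807 and 2507 and at 1912, 1875 and 2101. Its log2 change was -0.38 (SE 0.08, limma adjusted p = 0.011). The groups of Casz1 did not overlap, but without knockout replicate 2 the limma adjusted p was 0.0582, at a log2 change of -0.35. Gm13205, an antisense transcript that shares 122 exon bases with Casz1, was at 13 to 26 over the 6 hearts.

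The other zinc finger members did not pass. Prdm16, a regulator of the compact myocardium, was at 849, 896 and 790 in the control hearts, against 704, 629 and 795 in the knockout hearts, and one knockout lay within the span of the controls. Its log2 change was -0.26 (SE 0.10, limma adjusted p = 0.0967). Without knockout replicate 3 the limma adjusted p was 0.0461, at a log2 change of -0.34. Klf13, which interacts with GATA4, was at 1388 to 1606 in the controls and 1225 to 1560 in the knockouts, and its log2 change of -0.08 had the other sign without knockout replicate 1.

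**Figure D2:**
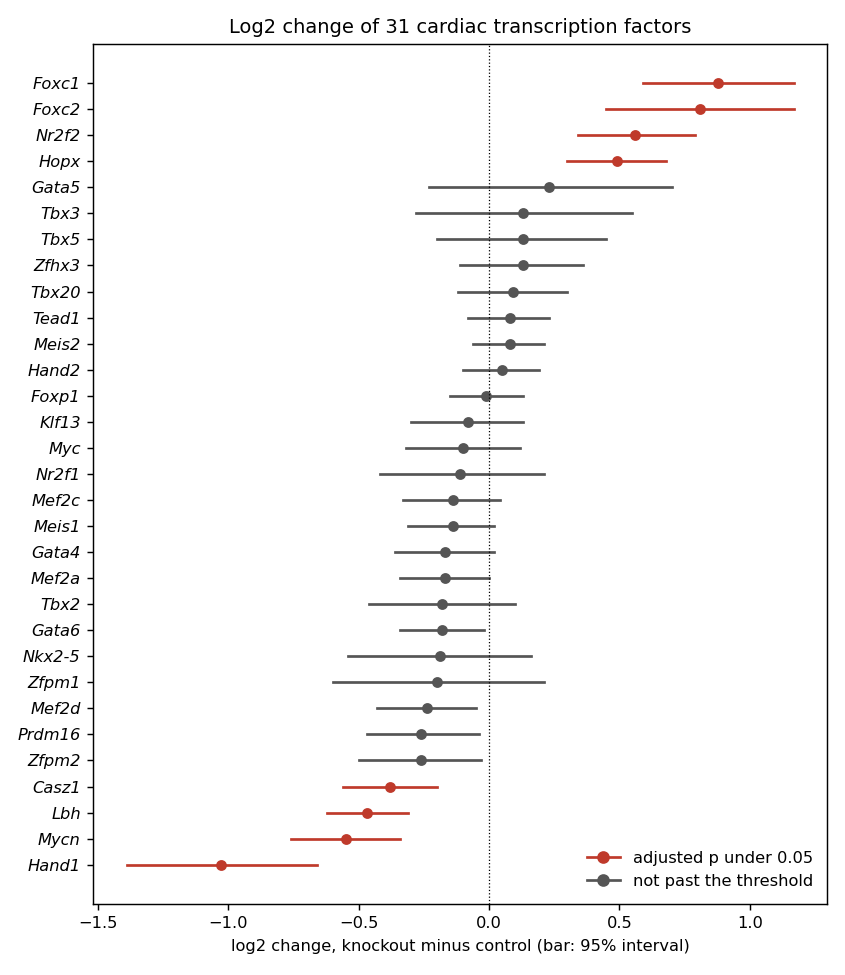
Log2 change (horizontal axis, knockout minus control on log2(value + 1)) of the 31 transcription factors, with 95% intervals from limma; red marks the genes with an adjusted p under 0.05. Foxc1 (0.88) and Hand1 (-1.03) stand at the ends, and the 23 factors not past the threshold lie between -0.26 and 0.23.

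None of the 5 GATA and FOG genes passed the test in limma, against 2 at an unadjusted p under 0.05, Gata6 and Zfpm2; of all genes tested 31.6% were at an unadjusted p under 0.05. Gata4, the main GATA factor of heart muscle, was at 5130, 5938 and 6182 in the control hearts, against 4940, 4849 and 5529 in the knockout hearts. Its groups overlapped, and its log2 change was -0.17 (95% interval -0.36 to 0.02). Gata6, which shares functions with Gata4, was at 3934, 3790 and 4442 and at 3507, 3586 and 3631, without overlap, and its log2 change was -0.18 (SE 0.07, limma adjusted p = 0.113). Gata5, known from the endocardium, was low, at 60 to 90 in the controls and 72 to 111 in the knockouts, with a wide 95% interval of the log2 change, from -0.23 to 0.70. Zfpm2, whose product FOG-2 binds GATA4, was at 1063, 799 and 911 and at 826, 742 and 729, and its log2 change was -0.26 (SE 0.11, limma adjusted p = 0.116). Zfpm1, the gene of FOG-1, ranged from 511 to 710 in the controls and from 455 to 739 in the knockouts.

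Nkx2-5, the homeodomain factor at the centre of the network, was at 1356, 1646 and 1864 in the control hearts, against 1195, 1280 and 1824 in the knockout hearts. Its values overlapped widely, and the log2 change was -0.19 with a 95% interval from -0.54 to 0.16. It was -0.07 without knockout replicate 1 and -0.38 without knockout replicate 3, and passed in neither case. The TALE homeodomain gene Meis1 was at 1157, 1165 and 1228 and at 1001, 1138 and 1077 (log2 change -0.14), and Meis2 at 1144, 1126 and 1141 and at 1186, 1188 and 1222 (log2 change 0.08); the groups did not overlap for either, and neither passed. Zfhx3, a large homeodomain and zinc finger factor linked to atrial rhythm, was at 228 to 266 in the controls and 252 to 287 in the knockouts.

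None of the 4 T-box genes passed in limma, and none had an unadjusted p under 0.05. Tbx20, a regulator of chamber muscle and the most abundant of them, was at 11145, 10588 and 9644 in the control hearts, against 12006, 11859 and 9668 in the knockout hearts. The knockout hearts split for Tbx5, a factor of the atria and left ventricle, which was at 836, 810 and 898 in the control hearts, against 704, 1129 and 995 in the knockout hearts. Its log2 change was 0.13 (95% interval -0.20 to 0.45); without knockout replicate 1 it was 0.32 (limma adjusted p = 0.0431), and without knockout replicate 2 it was -0.02. Tbx3 was at 224, 196 and 226 and at 169, 289 and 269, again with knockout replicate 1 below and the other knockouts above every control. Its log2 change of 0.13 was -0.01 without knockout replicate 2. Tbx2 was at 278 to 320 in the controls and 228 to 305 in the knockouts, with a log2 change of -0.18 (95% interval -0.46 to 0.10) that ran from -0.30 without knockout replicate 3 to -0.09 without knockout replicate 1.

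All 3 MEF2 genes, whose products drive muscle genes, had negative log2 changes and none passed; 1 of them, Mef2d, had an unadjusted p under 0.05. Mef2d was at 4165, 4688 and 4937 in the control hearts, against 3609, 3819 and 4241 in the knockout hearts, a log2 change of -0.24 (SE 0.08, limma adjusted p = 0.0767). It passed without control replicate 1 (limma adjusted p = 0.0322) and without knockout replicate 3 (limma adjusted p = 0.0482). Mef2a was at 7140 to 8517 and at 6584 to 7167, and Mef2c at 1875 to 2342 and at 1897 to 1979. Tead1, which pairs with YAP to activate growth and muscle genes, was at 5611, 5606 and 4964 and at 5830, 5749 and 5459, with a log2 change of 0.08 (95% interval -0.08 to 0.23).

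For all 23 factors that did not pass, the 95% interval of the log2 change lay within -1 and 1, and for 19 of them within -0.5 and 0.5. The widest bounds were -0.60 for Zfpm1 and 0.70 for Gata5. Of the 23, 15 had negative and 8 positive log2 changes. In 11 of the 31 members control and knockout values did not overlap, the 8 that were called with Gata6, Meis1 and Meis2, against 35.4% of all genes tested.

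Spread between hearts set how much could be seen. The median within-group SD of the members was 0.13 on the log2 scale. It was 0.14 for all genes tested and 0.12 for those with a mean of at least 50, nearer to the members in abundance. Among the knockouts, the highest heart exceeded the lowest by 1.71-fold for Tbx3, 1.62-fold for Zfpm1, 1.60-fold for Tbx5, 1.54-fold for Gata5 and 1.53-fold for Nkx2-5. In all of these knockout replicate 1 was the lowest heart, as it was for 19 of the 31 members, while it was the highest for 7. The same count over all genes tested is not given here, so it cannot be called particular to the members. Meis2, Foxp1 and Hand2 varied least, with within-group SDs of 0.02, 0.03 and 0.04 on the log2 scale.

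Levels can be compared between genes only per length, and the values were divided by the kilobases of all annotated exons of a gene in GENCODE M21. Exons not used in these hearts are counted in that length and would lower a gene's place, and the exons used were not determined. The control ranges below hold only the spread between hearts, not this error. On this scale the control means ran from 8089 per kilobase for Lbh to 11.9 for Zfhx3. Lbh (control range 7786 to 8612), Hopx (3674 to 4600) and Gata4 (1314 to 1584) each stood clear of the next gene. Nkx2-5 at 944 per kilobase, Tbx20 at 872 and Mef2d at 768 followed with control ranges that overlapped their neighbours, and then Gata6 at 623, Mef2a at 524, Hand2 at 522 and Tead1 at 397. The genes from Casz1 at 209 to Tbx5 at 181 each overlapped the next in their control ranges. Of the 30 neighbouring pairs in the whole order, 18 had overlapping control ranges. Among the genes that rose, Nr2f2 at 45.9 per kilobase, Foxc1 at 36.0 and Foxc2 at 30.1 stood near the low end, whereas Hopx was the second highest. In the knockouts Hopx, at 5690 per kilobase, came close to Lbh, at 5855.

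**Figure D3:**
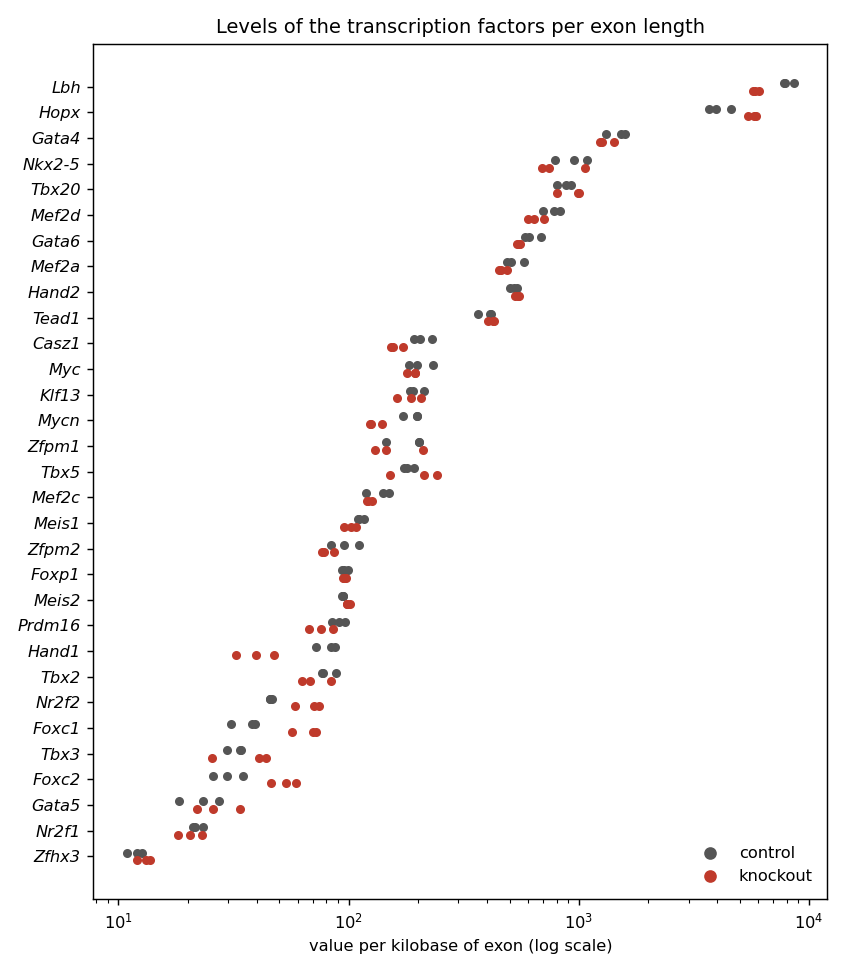
Values per kilobase of annotated exon (horizontal axis, log scale) of the 31 transcription factors in each control (grey) and knockout (red) heart, ordered by the control mean. Lbh and Hopx stand at the top and approach each other in the knockouts, and Hand1 shifts to the left of the genes around it.

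Relations within families were read from the log2 ratio of paralogs in each heart, in which any scaling factor of a heart cancels. In 4 of the 10 pairs compared, Hand1/Hand2, Nr2f1/Nr2f2, Mycn/Myc and Meis1/Meis2, the control and knockout ratios did not overlap. Among single genes tested the groups did not overlap in 35.4%, and the share over all pairs of genes was not computed. Hand1, Nr2f2 and Mycn were called on their own, so the ratios that hold them carry the same changes. Hand1/Hand2 went from a log2 ratio of -2.92 ± 0.11 to -3.99 ± 0.24 (SD, n = 3 each), a difference of -1.07. Nr2f1/Nr2f2 went from -1.81 ± 0.09 to -2.48 ± 0.12, a difference of -0.67. Mycn/Myc was 0.19, 0.29 and 0.05 in the control hearts, against -0.08, -0.38 and -0.36 in the knockout hearts. The ratio is not corrected for length, so its sign does not tell which gene was higher. Per kilobase the control means were 190 for Mycn and 204 for Myc, and the knockout means 129 and 190. The exact two-sided permutation p was 0.10 for each of the 4 pairs without overlap, the smallest that 3 hearts against 3 can give. Adjusted over the 10 pairs it was 0.25, so no pair can pass by this test.

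The groups overlapped in the other 6 pairs. Foxc1/Foxc2 was 1.35 ± 0.27 in the controls and 1.42 ± 0.09 in the knockouts (SD, n = 3 each), and the log2 difference of 0.07 was within the spread (exact permutation p = 0.70). Gata4/Gata6 differed by 0.01 and Mef2c/Mef2a by 0.03 on the log2 scale, with exact permutation p = 0.90 and p = 0.60. Tbx5/Tbx20 and Zfpm1/Zfpm2 had knockout SDs of 0.44 and 0.45 on the log2 scale, beside differences of 0.03 and 0.07. Tbx2/Tbx3 differed by -0.32 with overlapping groups (exact permutation p = 0.20).

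**Figure D4:**
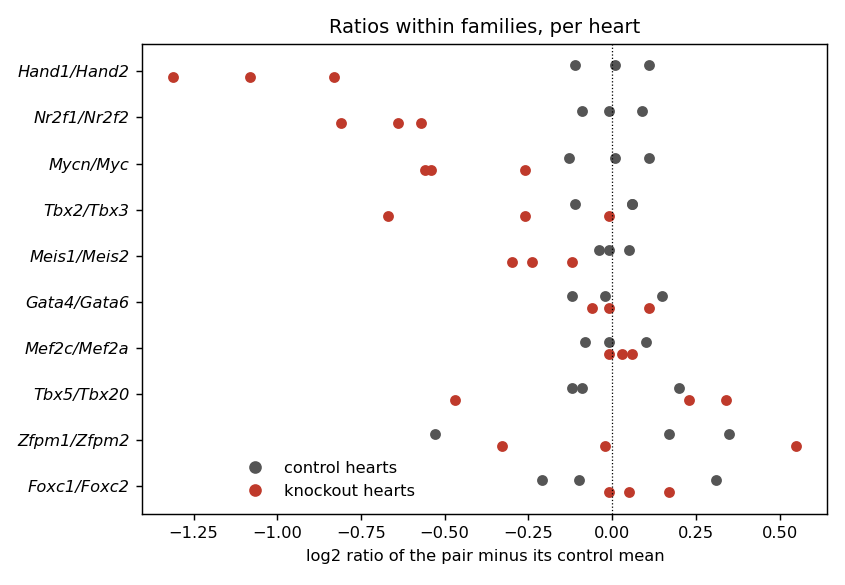
Log2 ratio of 10 pairs of related transcription factors in each heart, shown as the distance from the mean of the 3 controls (horizontal axis); grey points are controls and red points knockouts. The knockouts lie to the left of every control for Hand1/Hand2, Nr2f1/Nr2f2, Mycn/Myc and Meis1/Meis2, and among the controls for Foxc1/Foxc2, Gata4/Gata6 and Mef2c/Mef2a.

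Cofactors and partner factors were described from a list of 28 genes, 26 of them tested. Of these 3 rose and 3 fell, with a median log2 change of 0.09; of all genes tested 8.61% rose and 8.56% fell, with a median of 0.00. Pbx3, a TALE partner of MEIS proteins, was at 731, 700 and 783 in the control hearts, against 487, 494 and 520 in the knockout hearts, a log2 change of -0.56 (SE 0.08, limma adjusted p = 0.00176). Fhl2, a LIM protein that binds several cardiac factors, was at 10787, 11632 and 11602 and at 9493, 7748 and 8332, a log2 change of -0.42. Tcf21 and Nfatc1, which are also markers of epicardial and endocardial cells, had log2 changes of 0.78 and 0.38. Wt1 and Tbx18, epicardial markers in the same list, had log2 changes of 0.17 and 0.02 and did not pass. Tcf21 was at 626, 483 and 670 in the control hearts, against 831, 1155 and 1060 in the knockout hearts. The number of the list that rose was 1 without knockout replicate 2.

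Of 32 heart muscle genes known as targets of these factors, all tested, 7 rose and 7 fell, with a median log2 change of -0.08, beside 8.61% and 8.56% of all genes. The 4 with the smallest p went both ways. Myh6 was at 106187, 86437 and 102984 in the control hearts, against 31576, 39554 and 31568 in the knockout hearts, and Atp2a2, which pumps calcium back into its store, at 74671, 67465 and 74725 and at 47788, 46849 and 42229. Nppa was at 3635, 6446 and 3743 and at 13576, 16758 and 18230, and Id2, an inhibitor of helix-loop-helix factors, at 1085, 1013 and 1091 and at 1672, 2245 and 1946. None of the 4 genes had overlapping groups. Without control replicate 3 or without knockout replicate 2 only 3 of the list rose, and without control replicate 2 or without knockout replicate 2 only 4 fell.

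Of 20 genes known as targets of MYC proteins, mostly of ribosome assembly and growth, 5 fell and 1 rose, with a median log2 change of -0.16 and negative signs in 18 of the 20. Among all 15556 genes 8.56% fell, 8.61% rose and 7730 had a negative sign. Nop58, a protein of box C/D small nucleolar particles, was at 2086, 1954 and 2008 in the control hearts, against 1740, 1502 and 1474 in the knockout hearts, a log2 change of -0.36 (SE 0.08, limma adjusted p = 0.0111). Polr1b, a subunit of RNA polymerase I, had a log2 change of -0.30 and Nop56 one of -0.24. The 1 that rose was Ccnd2, a D-type cyclin, at 5495, 5538 and 4852 and at 6881, 6713 and 7147. The number that fell was 0 without knockout replicate 2, 1 without control replicate 2 or 3, and 3 without control replicate 1 or knockout replicate 3.

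Several members are expressed outside the muscle cells, and the markers of other cell types differed between the groups as well. Endothelial and endocardial markers rose in 5 of 12 cases and fell in 0, and their summed value was 28761 to 30640 in the controls and 32719 to 36855 in the knockouts. Their log2 changes ran from -0.12 for Robo4 and 0.00 for Cdh5 to 0.91 for Emcn and 0.95 for Npr3, with a median of 0.29. Fibroblast and valve mesenchyme markers rose in 6 of 10 cases (sum 94479 to 109792 against 124114 to 154449), epicardial markers in 2 of 9 (sum 4520 to 4990 against 5366 to 6109) and macrophage markers in 7 of 10 (sum 1831 to 2012 against 2612 to 3564). Of 10 cardiomyocyte markers 3 fell (Myh6, Actc1 and Actn2) and 0 rose (sum 961259 to 973337 against 737099 to 819473). The log2 changes of that list ran from -1.53 for Myh6 to 0.04 for Tnni3, with a median of -0.23. Myh6 and Actc1 are also among the heart muscle targets counted above as falling. No marker of these 5 lists was at 0 in all hearts. Beside the counts of these lists, 8.61% of all genes tested rose and 8.56% fell. Of 7 mural cell markers 1 fell, Myh11, and 0 rose. Of the 7, 5 had positive and 2 negative log2 changes, with a median of 0.24 (sum 12757 to 13929 against 14594 to 16235). Erythroid markers passed in 0 of 8 cases in limma, with 6 at an unadjusted p under 0.05, against 31.6% of all genes. Of the 8, 6 had negative log2 changes, and the embryonic globins Hbb-y and Hba-x had positive ones of 0.68 and 0.63; the sum was 37957 to 66152 in the controls and 30569 to 37882 in the knockouts. Markers of neural crest and nerve passed in 0 of 5 cases tested, with 1 at an unadjusted p under 0.05. The part of cell composition in the changes of Foxc1, Foxc2, Nr2f2, Hopx, Hand1, Mycn, Lbh and Casz1 was not tested.

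**Figure D5:**
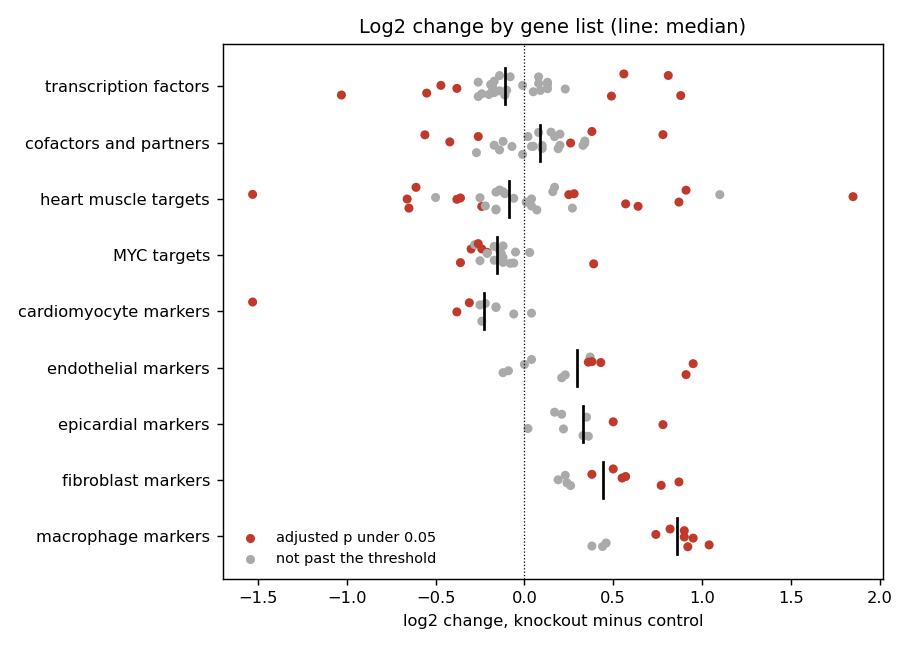
Log2 change (horizontal axis, knockout minus control) of each tested gene in 9 lists; red points have an adjusted p under 0.05, grey points do not, and the black line is the median of the list. The transcription factors spread to both sides of 0 around a median of -0.11, while endothelial, epicardial, fibroblast and macrophage markers lie mostly to the right.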

How the data were processed

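Poly(A) RNA of 6 hearts was sequenced as stranded, paired-end libraries, per the labels' protocols. Groups and replicate numbers were read from the sample titles. The tools named, per the submitters' processing notes, are featureCounts 1.5.0, STAR 2.4.2a, Trimmomatic, DESeq and DESeq2, with build mm10; their roles, and whether counting used strand, are not given in the sources used here. The deposited values are a score: read numbers per gene that the authors scaled by 1 factor for each sample and rounded, as read from the values, since no header states a unit. The step between low values gave that factor, and from it the depth; exact reads were not recovered, so no count model was run. Low genes carry counting error that the scaled values do not show, most in control replicate 3, the shallowest library.

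The whole table was fitted with limma 3.58.1 in R 4.3.3 (trend of variance on abundance, group only) on log2(value + 1), which understates changes of low genes, for 15556 genes with a mean of at least 10. P-values were adjusted by Benjamini-Hochberg over these genes, with a threshold of 0.05. Both the fit and the step estimate were tested on simulated data. Ratios of 10 paralog pairs were compared by exact two-sided permutation. The labels speak of littermate controls but tie no heart to a litter; p-values measure the spread between these hearts, and all replicate pairs differed by more than sampling noise (chi-square per degree of freedom 7.07 to 14.0).

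The members and lists were chosen with earlier results of these data known. By rule, every member was described, with Rbpms and Rbpms2 as the check of genotype and, of each further list, up to 4 called genes with the smallest p; Yap1, Jarid2 and other called genes beyond that are only counted. GENCODE M21 gave coordinates and exon lengths, and 45143 of 45706 identifiers matched, all 33 listed factors among them. Promoter sequences were taken from RefSeq (GRCm38.p6), where 21 of the 31 members had a window; Foxc2 and Hand1 had none. Alternatives were a replicate block, pseudocounts of 0.1 and 10, no filter, a filter of at least 50 in 3 samples, limma-voom on estimated reads, equal totals, quantile normalization, embryo sex as a term and leaving out each heart. Other steps ran in Python 3.11.15 (matplotlib 3.10.9, numpy 2.4.6, pandas 2.3.3).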

Additional observations from a re-analysis of the deposited data

How the results depend on the processing

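Of the 8 called factors, 7 passed under all 15 alternatives; Casz1 passed under 14 and had a limma adjusted p of 0.0582 without knockout replicate 2. The counts of 4 higher and 4 lower members were 4 to 5 and 3 to 6 without each heart in turn. Foxp1, near no change, had a log2 change of 0.02 with equal totals, 0.00 with quantile normalization and 0.01 with sex as a term, and -0.02 to 0.01 without each heart; the cause was not tested. Over the same omissions Tbx3 ranged from -0.01 to 0.37, Tbx5 from -0.02 to 0.32 and Klf13 from -0.17 to 0.01. With no filter on low values, which tests more genes, 1755 genes were called in place of 2670, and without each heart 1305 to 2370. Among cofactors 8 rose with the replicate block and 6 with equal totals, and 1 to 4 without each heart. Of heart muscle targets 3 rose and 4 fell with no filter and 4 rose with sex as a term, while leaving out each heart gave 3 to 7 that rose and 4 to 6 that fell. Of MYC targets 8 fell with the replicate block, 2 with no filter, 2 with equal totals, 3 with quantile normalization and 1 with sex as a term, and 0 to 4 without each heart. For these counts the cause was not tested. Same-numbered hearts did not deviate together (correlations of -0.041, -0.372 and 0.049), and 0 of 3 controls matched their own number best, so the replicate block rests on a shared number only; with it 3530 genes passed, and Mef2d and Zfpm2 passed at limma adjusted p of 0.0115 and 0.0304, making 6 members lower. With sex as a term Prdm16 also passed (limma adjusted p = 0.0459). All 80 alternative values of the paralog ratios moved by less than the spread between replicates. Other members not past the threshold also moved without each heart, such as Zfpm1 from -0.40 to -0.05 and Gata5 from 0.06 to 0.37. Mycl and Isl1 were too low to be tested.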
